A study of Caenorhabditis elegans with 4 samples.

Results

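The broad binding sites of RNA polymerase II (Pol II) in fed first-stage (L1) larvae of *Caenorhabditis elegans* were described here. They were selected on their width alone, as all sites of at least 3000 bp in the authors' combined list, and numbered 290 of 1967 sites (14.7%). Chromatin came from whole hermaphrodites of N2, the wild-type reference strain, grown at 20 °C, and no transgene or mutation was involved. The 2 Pol II ChIP samples, made with the mouse monoclonal antibody 8WG16, were set by the authors against 2 input samples, which hold crosslinked chromatin that was not immunoprecipitated. Whole larvae were used, so binding in different tissues was averaged. The list, on the WormBase WS180 build, records where each site lies and its q-value, with no read count and no value for a single replicate. No error between replicates could therefore be given, the sequencing depth is unknown, and every comparison between broad and narrower sites below is a description of this list without a test.

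Pol II transcribes all protein-coding genes. Its largest subunit, the product of *ama-1* in this species, ends in a repeated heptapeptide that changes its phosphorylation as the enzyme moves from initiation to elongation, and 8WG16 is known to favour the unphosphorylated repeat. At many genes the ChIP signal is highest near the start, whereas at strongly transcribed genes it runs on over the gene body. *C. elegans* genes are compact and some are transcribed together as operons, so a wide site may lie over a long gene, over several neighbouring genes or over an operon. Which of these applies at a given site was not analysed here, since an annotation of the WS180 build was not used.

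The broad sites covered 1.48 Mb, which was 49.97% of the 2.96 Mb covered by all sites. Their median width was 4518 bp, with an interquartile range of 3666 to 6016 bp, against a median of 616 bp for the 1677 narrower sites. Widths fell off steadily above the threshold: 105 sites were 3 to 4 kb wide, 76 were 4 to 5 kb, 68 were 5 to 7 kb, 31 were 7 to 10 kb and 10 were wider. The threshold did not fall in a gap of the distribution. The 3 sites just inside it were 3009 bp (chromosome IV, 4511005 to 4514013, q = 1.53e-12), 3024 bp (II, 8184995 to 8188018, q = 2.40e-04) and 3036 bp wide (III, 6871074 to 6874109, q = 3.73e-12). The 4 just outside were 2976 bp (V, 9545019 to 9547994, q = 1.59e-19), 2965 bp (IV, 11635631 to 11638595, q = 3.83e-13) and, tied in width, 2962 bp wide (I, 5824552 to 5827513, q = 7.82e-18, and IV, 5589560 to 5592521, q = 2.96e-11). The q-values on both sides of the threshold overlapped.

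Broad sites were spread far more evenly over the chromosomes than narrower ones. There were 57 each on IV and V, 53 on III, 42 on II, 41 on I and 40 on X. Per Mb between the first and last site of a chromosome, the density was lowest on X at 2.41, lay at 2.73 on I, 2.75 on V and 2.76 on II, and reached 3.35 on IV and 3.88 on III. The density of narrower sites ran from 5.90 per Mb on X and 7.77 on V to 54.5 on I.

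Chromosome I accordingly held 14.1% of the broad sites, 48.9% of the narrower sites and 15.3% of the total span. Of its 861 sites, 4.76% were broad. On the other chromosomes the share was 18.2% on II, 18.3% on IV, 25.5% on III, 26.2% on V and 29.0% on X. As a share of the span, broad sites took up 1.39% of chromosome I, against 1.26% on X and 2.12% on III, the ends of the range for the other chromosomes. Narrower sites took up 3.65% of chromosome I and from 0.771% (X) to 1.57% (IV) elsewhere. Of all bases under sites, the broad sites held 27.6% on I and between 49.6% (IV) and 63.6% (III) on the other 5 chromosomes. The median width of broad sites varied little, from 4157 bp on IV to 4779.5 bp on X, with 4522 bp on I. Chromosome I thus lay within the range of the others in the number, coverage and width of broad sites, and outside it in narrower sites.

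**Figure D1:**
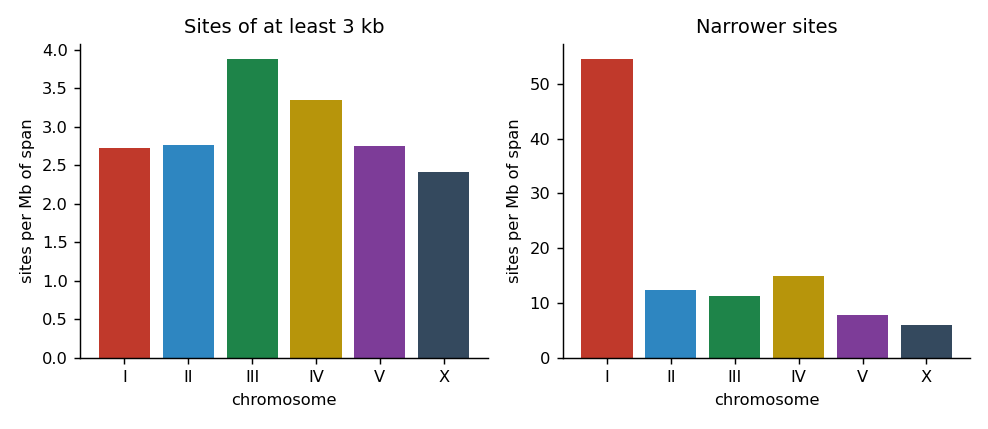
Sites per Mb of span (y axis) on each chromosome (x axis) for sites of at least 3 kb (left) and narrower sites (right), with separate y axes that both start at 0. Broad sites lie between 2.41 and 3.88 per Mb on every chromosome, whereas narrower sites reach 54.5 per Mb on chromosome I and at most 14.9 on the others.

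The widest sites of the chromosomes were alike in size and unlike in strength. On chromosome II the widest was 11.1 kb (14597799 to 14608857, q = 3.77e-116) and lay near the right end, at 95.9% of the span, with its nearest neighbour 189.5 kb away. The widest of chromosome V was 11.3 kb (8414847 to 8426102, q = 5.11e-35), that of I was 12.3 kb (6573701 to 6585987, q = 1.37e-144) and that of III was 12.7 kb (345418 to 358076, q = 1.19e-21). The widest of III lay at the left end, at 2.12% of the span, with another site 256 bp away. Chromosome IV had a 13.7 kb site (14610877 to 14624610, q = 1.15e-32), and X a 15.2 kb site (6735449 to 6750660, q = 2.69e-286).

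A wide site can gather more reads, and more reads lower a q-value at the same enrichment, so the strength of broad sites follows in part from the rule that chose them and is given as a description. The median q-value was 3.16e-29 for broad sites and 7.67e-05 for narrower ones. Below 1e-10 lay 221 of the 290 broad sites (76.2%), where 28.8% of all sites in the list did. Below 1e-50 lay 102 broad sites (35.2%), against 7.47% of all sites. Below 1e-100 lay 50 broad sites (17.2%), against 3.25% of all sites. Of the 100 strongest sites 74 were broad, as were 123 of the strongest 200 and 209 of the strongest 500.

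Strength nevertheless varied widely among the broad sites, from 2.69e-286 to 7.71e-03, close to the list's upper limit of 0.01. In the weaker part of the list, below the 983 sites with the lowest q-values, lay 24 broad sites. Among the narrower sites, 106 (6.32%) had a q-value below the median of the broad ones. Width and −log10 q had a Spearman's rho of 0.30 within the 290 broad sites, against 0.57 within the narrower 1677. These correlations are across sites of 1 list that share their libraries and depth, and they are given without a p.

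The range of q-values stayed wide at like width. Sites of 2 to 3 kb, just below the threshold, had a median −log10 q of 14.5, with an interquartile range of 6.20 to 32.2. At 3 to 4 kb the median was 16.1 (8.52 to 36.2), at 4 to 5 kb 34.5 (12 to 73.4), at 5 to 7 kb 36.6 (13.9 to 69.7) and at 7 to 10 kb 57.8 (25.4 to 109.9). Among the 10 sites wider than 10 kb it was 33.1 (23.3 to 106.5). The median thus rose with width up to 10 kb and was lower above it, while the middle ranges of neighbouring classes overlapped.

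The extremes show the same spread. Between 3 and 4 kb, q ran from 1.03e-270 (I, 7489650 to 7493460) to 6.38e-03 (X, 3089481 to 3093056). Between 4 and 5 kb it ran from 3.35e-253 (V, 14684572 to 14689189) to 1.71e-03 (II, 8128002 to 8132983), and between 5 and 7 kb from 1.67e-262 (III, 5501257 to 5506856) to 7.71e-03 (V, 3711964 to 3718181). Even the class of 7 to 10 kb reached from 3.00e-220 to 1.70e-06 (V, 16777566 to 16787186), both on chromosome V. The weakest site above 10 kb had a q-value of 6.43e-08 (III, 10810530 to 10821024). Every class of broad sites up to 7 kb therefore held both sites among the strongest 10 of the list and sites with a q-value above 0.001.

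**Figure D2:**
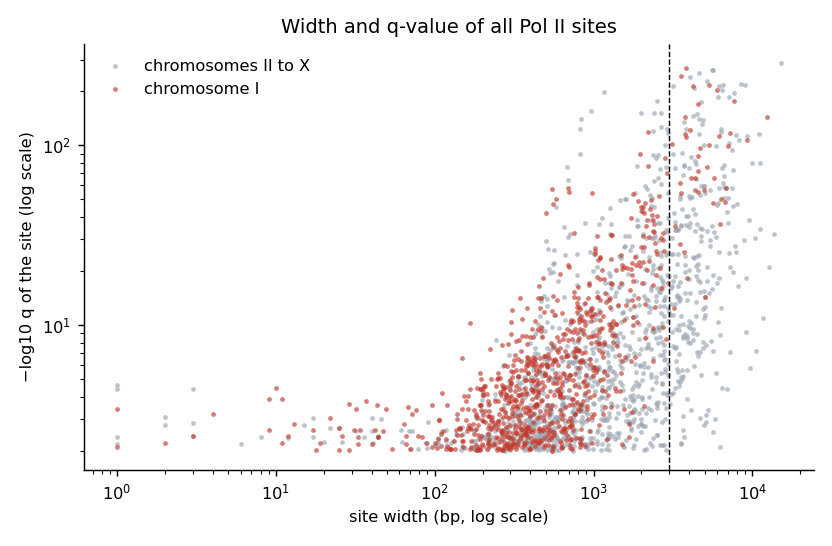
Width in bp (x axis, log scale) and −log10 q (y axis, log scale) of all 1967 sites, with chromosome I in red, the other chromosomes in grey and the 3000 bp threshold as a dashed line. To the right of the line grey points reach down to a −log10 q of 2.11, whereas no red point lies below 12.5.

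The broad sites of chromosome I lacked the weak members that those of every other chromosome had. Their −log10 q had a median of 75.7 and an interquartile range of 54.6 to 118 (41 sites). The medians were 35.7 on II, 21.3 on V, 20.9 on III, 18.1 on IV and 15.15 on X, and 21.5 over these 5 chromosomes together (249 sites). The weakest broad site of I had a q-value of 3.45e-13 (8761398 to 8764619, 3222 bp). Of the 249 broad sites elsewhere, 83 (33.3%) were weaker than this one. On II, III, IV, V and X the weakest broad sites had q-values of 1.71e-03, 1.29e-03 (III, 8980408 to 8985498), 6.14e-03 (IV, 5746877 to 5750426), 7.71e-03 and 6.38e-03. At the upper end the chromosomes overlapped: the strongest broad site reached a −log10 q of 270 on I, between 213 and 262 on II to V, and 286 on X.

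This difference between chromosome I and the others was present in every width class. At 3 to 4 kb the median −log10 q was 61.3 on I (13 sites) and 13.9 elsewhere (92 sites). At 4 to 5 kb it was 71.5 (11 sites) against 24.4 (65 sites), at 5 to 7 kb 61.8 (12 sites) against 30.2 (56 sites) and at 7 to 10 kb 112 (4 sites) against 47.2 (27 sites). It was also present below the threshold, at 30.5 against 10.4 for sites of 2 to 3 kb and 10.6 against 5.84 for sites of 1 to 2 kb. Under 500 bp the medians were 3.14 and 2.61. A q-value below 1e-50 was given to 32 of 41 broad sites on I and to 70 of 249 elsewhere. Chromosome X did not stand apart in the same way, with 14.3 at 3 to 4 kb (15 sites) against 13.8 on II to V (77 sites), and 18.3 at 5 to 7 kb (13 sites) against 30.8 (43 sites). Whether read depth or input scaling differed between the chromosomes was not tested.

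**Figure D3:**
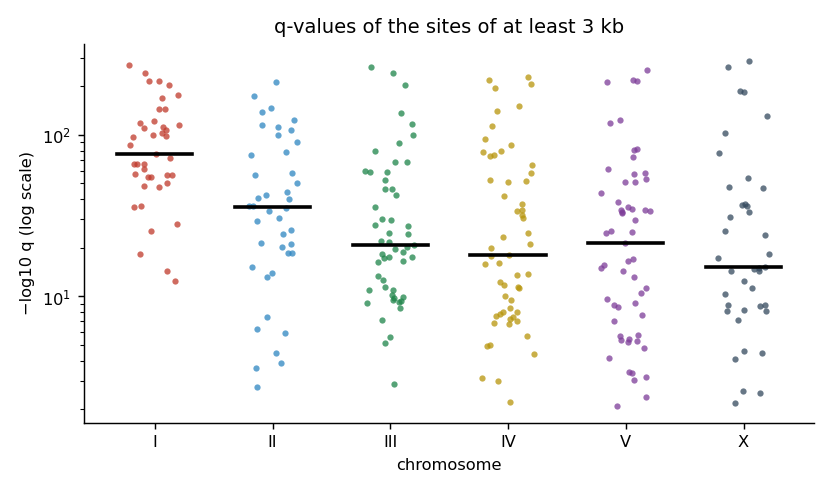
−log10 q (y axis, log scale) of each site of at least 3 kb by chromosome (x axis), with small sideways shifts to separate points and a black bar at the median. The 41 sites of chromosome I lie between 12.5 and 270, and those of the other chromosomes reach down to between 2.11 and 2.89.

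Broad sites lay less often in the chromosome centres than narrower sites did. As background, the centres of chromosomes I to V, the autosomes, hold more genes and the arms more repeats. With each span divided into 3 equal parts, the middle part held 108 of 250 autosomal broad sites (43.2%) and 847 of 1579 narrower ones (53.6%). The left part held 28.8% of the broad and 21.5% of the narrower sites, and the right part 28.0% and 24.9%. Without chromosome I the middle part held 45.5% of 209 broad sites and 53.8% of 759 narrower ones. In finer steps, the outermost of 6 equal parts together held 21.6% of broad and 19.6% of narrower sites. Without chromosome I they held 20.6% and 17.3%. These end parts held the larger share of broad sites on I (26.8% against 21.7%), III (24.5% against 19.4%), IV (26.3% against 20.1%) and V (15.8% against 10.6%). On II they held the smaller one (14.3% against 17.5%), and on X the larger one (32.5% against 24.5%). On chromosomes I to V together, the classes differed most in the part just left of the centre, with 18.8% of broad and 25.8% of narrower sites. The next part to the left held 18.4% of broad and 12.4% of narrower sites.

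The chromosomes differed in this. The middle part held 31.7% of broad and 53.5% of narrower sites on I, 47.4% and 67.1% on V, 45.3% and 56.1% on III, and 36.8% and 46.9% on IV. Chromosome II went the other way, with 54.8% of broad and 49.7% of narrower sites. On X the middle part held 12 of 40 broad sites (30%) and 40 of 98 narrower ones (40.8%). By this division broad sites were thus the less central class on 5 of 6 chromosomes, on counts of 40 to 57 broad sites each. The direction on II depended on the division. There the middle 50% of the span held 66.7% of broad and 68.25% of narrower sites.

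By width class, the middle part held 56.7% of the autosomal sites under 500 bp, 51.1% at 500 to 1000 bp, 55.5% at 1 to 2 kb, 45.6% at 2 to 3 kb, 45.6% at 3 to 5 kb and 38.9% from 5 kb up. With chromosome I included, the share was therefore lower from about 2 kb up, below the threshold used here. Without chromosome I the shares in the same order were 58.4%, 52.6%, 53.4%, 48.1%, 47.1% and 42.5%. There the decline began with the narrowest classes. On the autosomes, central and outer broad sites were alike in width, with medians of 4507 and 4517 bp. Their median −log10 q was 34.0 in the middle part and 28.8 outside it.

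**Figure D4:**
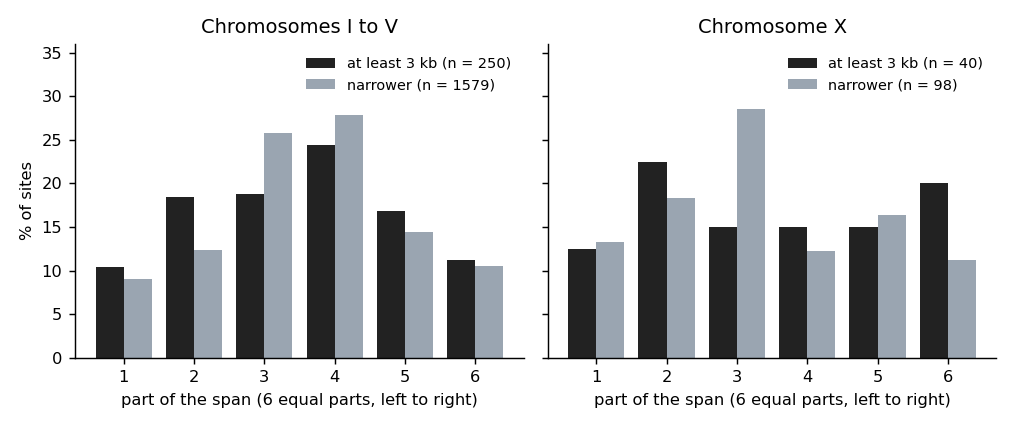
Percentage of sites (y axis) in 6 equal parts of the chromosome span (x axis) for sites of at least 3 kb (black) and narrower sites (grey), on chromosomes I to V together and on X. On the autosomes the black bars are below the grey ones in both central parts (18.8% against 25.8% and 24.4% against 27.9%) and above them in the other 4.

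Whether broad or narrower sites lay closer to their nearest neighbour depended on the chromosome and on how distance was measured. From edge to edge and pooled, a broad site was farther from its nearest neighbour, with a median gap of 4998 bp against 2259 bp for narrower sites. Chromosome I held 820 of the narrower sites, and without it the medians were 6580 bp for broad and 8222 bp for narrower sites. Within chromosomes the edge gap was the smaller one for broad sites on I (592 against 928 bp), II (6776 against 9526 bp), III (3669 against 8545 bp), IV (2238 against 4231 bp) and X (9350 against 9968 bp). On V it was the larger one (11261 against 9536 bp). Between midpoints, a measure to which the width of a site adds, the median distance of broad sites was the larger one on I (4046 against 1821 bp), II (11126 against 10206 bp), IV (5802 against 5348 bp), V (14807 against 11050 bp) and X (15563 against 12100 bp). Broad sites were closer by both measures on III alone, at 10070 against 11024 bp between midpoints. The middle ranges of the edge gaps overlapped on every chromosome, for example 340 to 28850 bp and 2116 to 37598 bp on III.

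The gaps of broad sites ranged from immediate neighbours to isolation. The smallest was 203 bp, between 2 broad sites of chromosome IV (14790146 to 14795178 and 14795382 to 14799640), and no gap in the list was under 201 bp. A neighbour within 1 kb was found at 61.0% of broad sites on I, 43.9% on IV, 39.6% on III, 21.4% on II, 19.3% on V and 5% on X. For narrower sites the shares were 51.3%, 29.5%, 16.8%, 15.3%, 22.4% and 23.5% in the same order. Broad sites therefore had close neighbours more often than narrower ones on I to IV and less often on V and X, with 2 of 40 broad sites and 23 of 98 narrower sites on X. Where a neighbour of a broad site lay within 1 kb, its median width was 790 bp on I (30 neighbours) and 1612 bp on the other chromosomes (70 neighbours). Among the other chromosomes this median ran from 837 bp on II (9 neighbours) to 4066 bp on III, where 12 of 22 such neighbours were broad. Neighbours within 1 kb of narrower sites had median widths of 649.5 bp on I and 1267.5 bp elsewhere.

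At the other extreme, 53 broad sites (18.3%) and 157 narrower sites (9.36%) had no other site within 50 kb. Of these broad sites, 19 lay on V, 11 on X, 10 on III, 7 on IV, 4 on II and 2 on I. Isolation varied with the chromosome in both classes: it was found at 33.3% of broad and 24.2% of narrower sites on V, 27.5% and 22.4% on X, 18.9% and 20.6% on III, 12.3% and 11.0% on IV, 9.52% and 11.6% on II, and 4.88% and 1.71% on I. The most isolated broad site was on the left arm of II (1233006 to 1236867, q = 1.26e-04), 385 kb from any other. The strongest broad site of IV (16166513 to 16171692, q = 1.86e-227) had another site 570 bp away, but its nearest broad neighbour was 1.34 Mb away, the largest such distance among the 290 sites.

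How often a broad site lay nearby differed between broad and narrower sites with the distance and the chromosome. Within 50 kb the share was lower for broad sites on II, IV, V and X, and higher on I and III. Another broad site lay within 50 kb of 90 of the 290 (31.0%), while a broad site lay within 50 kb of 35.1% of the narrower sites. Without chromosome I, which held 820 of the narrower sites, the shares were 30.9% and 39.1%. By chromosome the pairs of shares were 31.7% and 31.0% on I, 33.3% and 43.4% on II, 43.4% and 39.4% on III, 29.8% and 38.2% on IV, 19.3% and 35.4% on V, and 30% and 38.8% on X. Within 10 kb the shares were 18.6% for broad and 14.4% for narrower sites, and within 25 kb 24.5% and 24.3%. Within 100 kb they were 51.0% and 54.4%, and 51.8% and 58.0% without chromosome I. At 100 kb broad sites had the higher share on IV alone (68.4% against 53.5%). The share within 10 kb was higher for broad sites on III (28.3% against 16.8%), I (19.5% against 12.2%) and X (20% against 17.3%). It was lower on II (9.52% against 14.8%) and nearly equal on IV (17.5% against 17.7%) and V (15.8% against 15.5%). As neighbours along the chromosome, 53 of 1961 adjacent pairs were both broad, none of them on I, and 10 of the 53 were under 1 kb apart. Outside chromosome I, 21.4% of the neighbours of broad sites and 22.8% of the neighbours of narrower sites were broad. The width of a site was nearly unrelated to that of the next one, with a Spearman's rho of 0.04 over 1101 neighbouring pairs outside chromosome I and 0.07 over 860 pairs on it.

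When broad sites up to 50 kb apart were grouped, 200 stood alone, 36 groups held 2 and 6 groups held 3. The tightest group of 3 lay on the right arm of III from 12596583 to 12618053. Its sites of 3.37, 6.93 and 7.59 kb (q of 1.02e-22, 2.17e-43 and 2.22e-20) covered 83.3% of 21.5 kb. Another group on III (7329030 to 7377042) held sites of 4.70, 5.16 and 7.50 kb, and the group from 10715312 to 10821024 held sites of 4.44, 4.54 and 10.5 kb. Chromosome V had a group of 3 in 23.1 kb (14828538 to 14851677), with q-values of 6.65e-04, 2.55e-10 and 1.36e-35.

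The group of 3 on IV (14790146 to 14826991) held sites with q-values of 3.72e-12, 2.71e-10 and 9.05e-09. The group on I (4136808 to 4182803) held sites with q-values of 1.65e-55, 3.47e-215 and 2.06e-57, and 5 narrower sites lay between them. The groups on IV and V held no narrower site. The weakest member on I was stronger than every member of the other 5 groups.

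The number of broad regions on chromosome I depended on how neighbouring sites were joined. When sites under 500 bp apart were joined, and the width taken over the joined region, the regions of at least 3000 bp rose from 41 to 72 on I and from 249 to 259 on the other 5 chromosomes. Joining below 1 kb gave 86 and 265, below 2 kb 124 and 274, and below 5 kb 154 and 306. Per Mb, chromosome I went from 2.73 to 8.25 at 2 kb, while the others went from 2.99 to 3.29. Of the 124 regions on I at 2 kb, 88.7% were made of several sites, against 39.4% elsewhere.

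The weaker members then appeared on I too. The weakest region of at least 3000 bp on I had a −log10 q of 12.5 as listed, 5.76 after joining at 500 bp and 3 at 2 kb, taking the lowest q-value of the joined sites. The median on I fell from 75.7 to 49.8 and 22.8, and that of the other chromosomes was 21.5, 21.0 and 21.0. As listed, the broad sites of I were thus 14.1% of all broad sites, with a higher median −log10 q than those of any other chromosome. With sites under 2 kb apart taken as 1 region, they were 31.2% of all broad regions and close in median −log10 q to those of the other chromosomes.

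**Figure D5:**
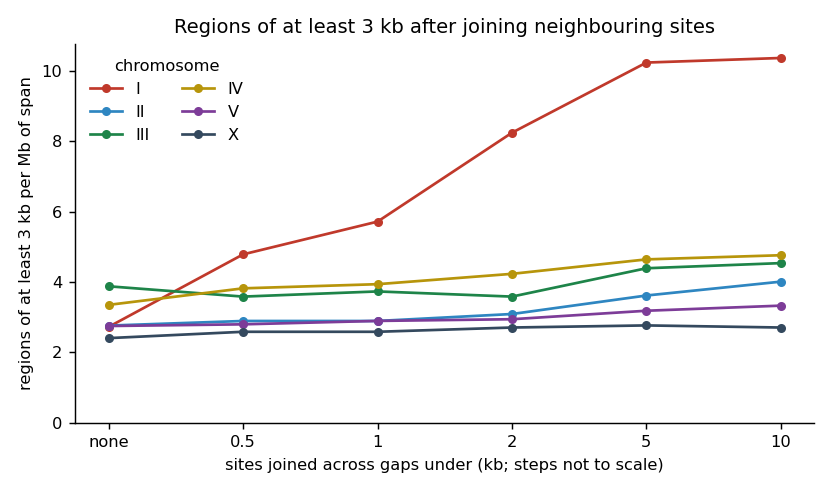
Regions of at least 3 kb per Mb of span (y axis) on each chromosome when sites are taken as listed and after joining across gaps under 0.5, 1, 2, 5 and 10 kb (x axis, steps not to scale). Chromosome I rises from 2.73 to 10.4 per Mb, and the other chromosomes end between 2.71 and 4.76.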

How the data were processed

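Per the labels, Pol II ChIP DNA and input DNA were sequenced from 2 replicates each of N2 L1 larvae crosslinked with 2% formaldehyde. The protocol text also speaks of embryos and an anti-GFP serum, and the sample labels were followed. The authors deposited 1 combined site list with a q-value for each site, called by PeakSeq on WormBase WS180 per the file headers and source field. How reads were aligned, which caller version ran and how replicates were combined is not given in the sources used here.

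Width is end minus start plus 1. Gaps are bases between site edges. Spans run from the first to the last site of a chromosome, and position is that of the midpoint. Sites named were the strongest, weakest and widest broad site of each chromosome, the extremes of each width class and of the gaps, the sites beside the threshold and the groups of 3. The members, lists and measures were chosen with earlier results of these data known. No p-value was computed, since sites are not replicates. The functions were tested on simulated data. Python 3.11.15, pandas 2.3.3 and scipy 1.17.1 were used.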

Additional observations from a re-analysis of the deposited data

How the results depend on the processing

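Of 105 alternative values of 14 results, 63 stayed within 1.5 times (the number of sites and the share of bases) or within a 95% interval that treats sites as independent (the others), and 42 moved. Joining at 1 kb or more, and the values for narrower sites and for chromosome I against the others, were chosen after seeing the data. The 290 sites became 185 at a width of 4000 bp and 109 at 5000 bp, and their share of covered bases fell to 26.0% at 5000 bp. The share of broad sites on chromosome I was 21.8% after joining at 500 bp and 31.2% at 2 kb. The middle part held 43.2% of autosomal broad sites, and the middle 50% of the span held 64.0% (narrower sites 69.9%). Broad sites were less central than narrower ones under each alternative run, though after joining at 2 kb the shares were 48.4% and 49.95%. The median gap of 4998 bp became 8885 bp after joining at 500 bp, 14186 bp at 2 kb, 20385 bp among the 983 lowest q-values and 8922 bp between midpoints. Without chromosome I it was 6580 bp, below the 8222 bp of narrower sites. The share with another broad site within 50 kb was 41.1% at a width of 2500 bp, 18.9% at 4000 bp, 11.0% at 5000 bp and 41.5% after joining at 2 kb. It was 24.5% within 25 kb and 51.0% within 100 kb. The median −log10 q was 36.9 at 4000 bp, 46.2 at 5000 bp and 21.4 after joining at 2 kb. The rank correlation fell to 0.14 at 4000 bp. Other cluster distances, the middle 50% of the span and midpoint distances redefine the quantity. Joining both merges sites and adds the gaps between them to the region. Why values moved was otherwise not tested. No paired analysis was possible because the sites carry only combined values, and for the same reason no replicate could be left out. Unknown depth limits statements on weak sites.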

Other observations

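Counted by megabase, broad sites were thinly and broadly spread. Of 97 whole megabases, 10 held no broad site, none of them on chromosome I, and the median was 3. The most were 8 on II (8000001 to 9000000) and 7 on IV (11000001 to 12000000). On I no megabase held more than 4. Across the 82 whole megabases outside I, Spearman's rho between the numbers of broad and narrower sites was 0.65, and across the 15 of I it was 0.07. The chromosomes outside I differed, with 0.90 on II, 0.65 on IV, 0.63 on III, 0.53 on V and 0.27 on X. Neighbouring megabases are not independent, and no p is given.

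The longest stretch between neighbouring broad sites was 1.85 Mb on II, 1.84 Mb on V, 1.62 Mb on III, 1.51 Mb on X, 1.38 Mb on I and 1.34 Mb on IV. On I this stretch (13373453 to 14754794) held 49 narrower sites. On the other chromosomes it held between 3 and 8. On II, III, V and X it lay in the left part of the chromosome, and on I and IV in the right part.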
